A study of Labrus bergylta with 24 samples.

Results

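Cathepsins are the proteases of the lysosome, and this report follows their gene models along the intestine of the ballan wrasse (Labrus bergylta), a fish without a stomach. The members are all gene models whose name in the deposited table is cathepsin A, B, C, D, H, K, L, O, S or Z (ctsa to ctsz, case ignored, a copy number allowed). They are 18 of the 27392 gene models, carry 10 names, and 6 of these names have several copies. Names are spelled here as in the table, and the gene model identifier tells the copies apart. The sample labels number 6 sets of 4 samples, read here as 6 fish with 4 segments each. The study's methods place the fish at a commercial farm, call them adult and name fewer of them. Its results give n = 6 for the 4 segments, as the labels do, and the labels were followed here. The gut of each fish was divided into 4 consecutive segments, from segment 1 (anterior) to segment 4 (the hind-gut). There were thus 24 libraries, 6 per segment, all from intestinal tissue, with no strain, genotype or treatment named, so segment was the only factor compared.

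The deposited values are normalized counts, that is the reads of a gene model scaled by a factor that corrects for the depth of its library. The value of 1 read could be recovered, and libraries held 7867202 to 29650309 reads (median 19657831.5). Models that reached 10 in 6 or more libraries were tested (19515 of 27392), and all 18 cathepsin models were among them. Segments were compared with limma on log2(value + 1), with Benjamini-Hochberg adjustment over all models tested, and "called" means an adjusted p under 0.05. Fold changes on this scale are smaller than the true ratios for models with few reads. Levels of different gene models are not comparable, because their lengths are not used here, and copies of 1 name may share reads. Enterocyte markers (14 models named VIL1, CDH17, FABP2, Epcam, CDX1 or ANPEP) were present in every library, with summed normalized counts from 148191 to 361214. In segment 4 fish 2 was the lowest library for several members. Its 4 libraries were each most like the mean of their own segment in the other fish (r of 0.90, 0.75, 0.57 and 0.67 from segment 1 to segment 4, over 1000 models chosen without fish 2), with the next segment in likeness at 0.67, 0.70, 0.37 and 0.21. Without fish 2, limma called 10, 8 and 10 members in segment 4 against segments 1, 3 and 2 (33.0%, 15.3% and 23.7% of all models). Values without fish 2 are given for some members only, so not every call that changes without it is named.

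Cathepsins are made as inactive precursors, receive a mannose 6-phosphate tag in the Golgi apparatus and are carried by receptors to the lysosome, where low pH activates them. Cathepsin A is a serine carboxypeptidase that also protects beta-galactosidase (GLB1) and neuraminidase (NEU1), cathepsin D is an aspartic protease, and the others are cysteine proteases of the papain type. In fish larvae and stomachless fish, proteins that are not digested in the lumen are taken up whole by enterocytes of the hind-gut, which in zebrafish use the receptors cubilin and amnionless and degrade the cargo in large lysosomes. The study cites uptake of macromolecules in fish with a stomach too.

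The hind-gut had the most cathepsin calls, and all of them were upwards. Against segment 1, 10 of the 18 models were higher in segment 4 and 0 were lower, whereas 17.1% of all models tested were called higher and 14.8% lower. Against segment 2, 8 models were higher and 0 lower (9.72% and 10.8% of all models), and against segment 3, 7 were higher and 0 lower (5.21% and 5.82% of all models). With fish as a block these counts were 12, 12 and 10 against segments 1, 2 and 3 (41.8%, 30.2% and 18.3% of all models, both directions). With or without the block, the counts against segments 1 and 2 include CTSZ (LABE_00053140). This model reached 10 in no segment 1 library and in segment 2 in fish 6 alone, and it passed the filter mainly through segments 3 and 4. Its calls in these counts are thus not independent of the filter. In 7 models all 6 libraries of segment 4 lay above all of segment 1 (6.29% of all models), in 7 above all of segment 2 (3.78%) and in 3 above all of segment 3 (2.61%), the last being Ctsa (LABE_00005917), CTSA (LABE_00064529) and CTSB (LABE_00042575). The median log2 fold change of the members was 0.64, 0.61 and 0.74 in these comparisons, beside 0.04, 0.02 and -0.01 over all models tested. Further forward fewer members were called, at about the rate of all models. Between segments 3 and 1, 3 models differed (16.7% of the members and 13.9% of all models). Of these, 2 were upwards (7.13% of all models) and 1 downwards (6.81%). With the block 4 models differed (22.2% of the members and 23.2% of all models). The libraries of segment 3 lay above all of segment 1 in CTSH (LABE_00000349) and CTSS (LABE_00017884) (2 models, 3.89% of all), and above all of segment 2 in CTSS (LABE_00017884) (1 model, 0.958%). Between segments 3 and 2 and between segments 2 and 1 limma called 0 cathepsins. As it called only 2.08% and 0.676% of all models there, 0 of 18 does not set the members apart. At an unadjusted limma p under 0.05 there were 3 and 1 members (11.7% and 7.88% of all models). In the same comparisons edgeR called 0 and 0 and DESeq2 called 1 and 1. The model called by DESeq2 was CTSH (LABE_00000349) in both, and with the block it was the 1 member called between segments 3 and 2 (5.45% of all models), with 0 between segments 2 and 1 (1.92%). In the moderated F test 11 of the 18 models differed among the 4 segments (27.5% of all models), and 14 with the block (39.9%), both counts again with CTSZ (LABE_00053140). In whole tissue, fewer cells of a type and less RNA per cell cannot be told apart, which holds for every difference given here.

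**Figure D1:**
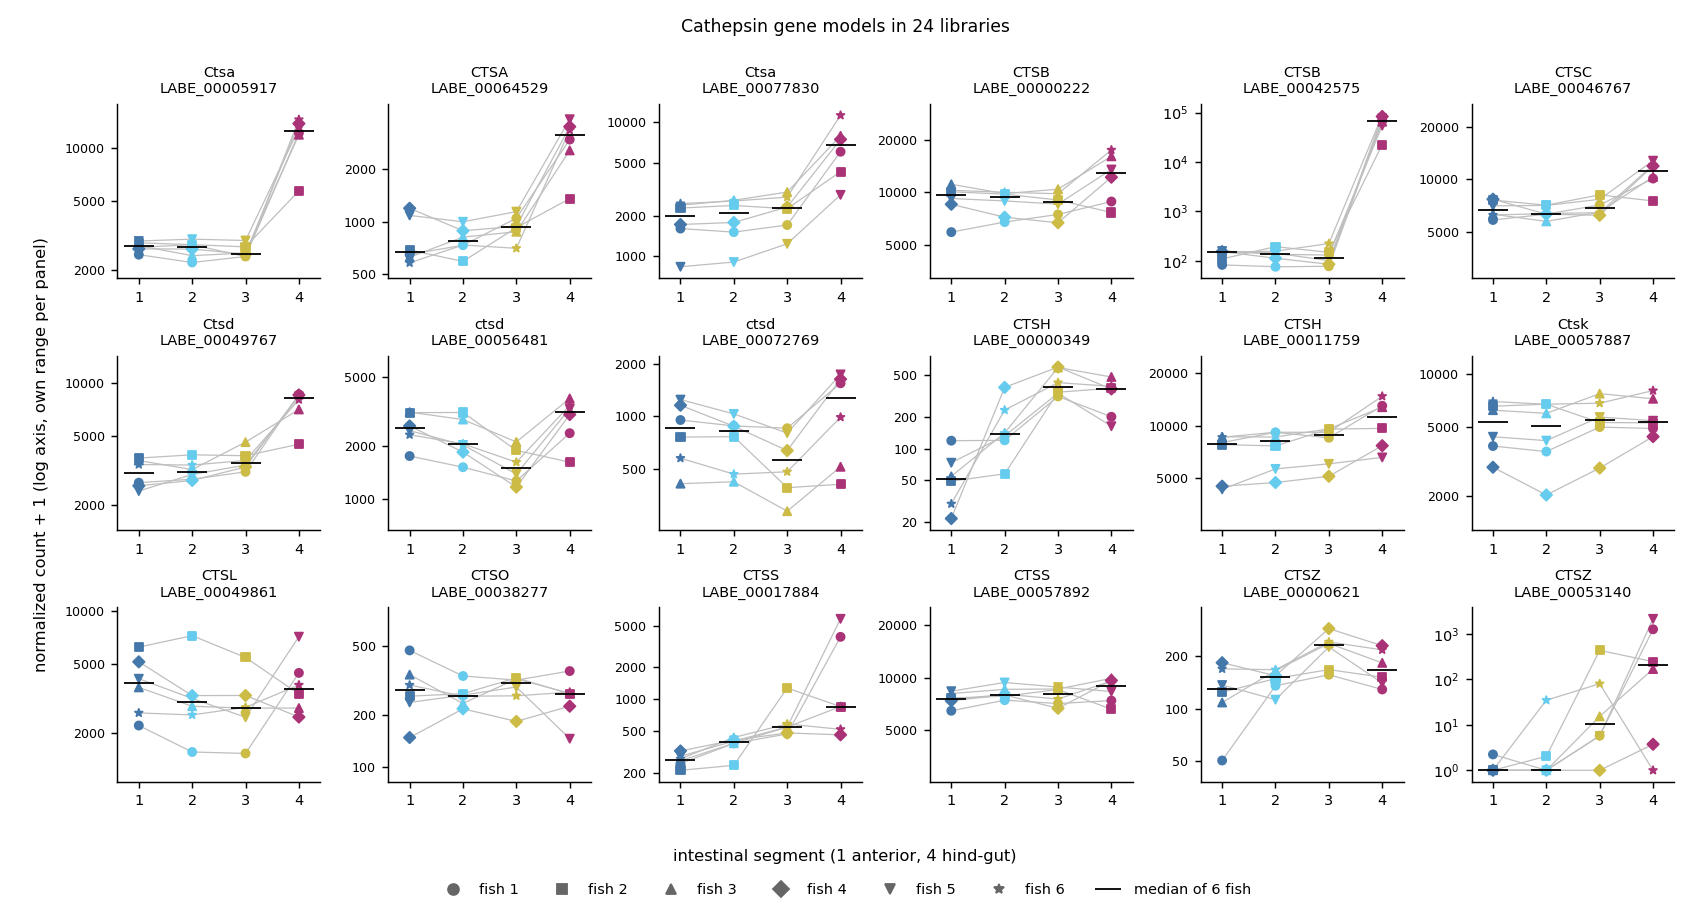
Normalized counts + 1 of the 18 cathepsin models (log axes, each with its own range) by segment in 6 fish, with grey lines joining the segments of a fish and bars at the medians. All 3 cathepsin A copies, CTSB LABE_00042575 and Ctsd LABE_00049767 stepped up between segments 3 and 4, and the square of fish 2 was the lowest segment 4 value of CTSB LABE_00042575 (22518), Ctsa LABE_00005917 (5681) and Ctsd LABE_00049767 (4471).

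All 3 copies of cathepsin A, the serine carboxypeptidase, rose in the hind-gut against each other segment. Ctsa (LABE_00005917) lay at 2443 to 2926 normalized counts in segment 1 (median 2722), at 2202 to 2999 in segment 2, at 2381 to 2946 in segment 3 and at 5681 to 14577 in segment 4 (median 12578). Its lowest segment 4 library, that of fish 2, was above all 18 libraries of the other segments, and the log2 fold change against segment 1 was 2.07 ± 0.15 (SE, n = 6, limma adjusted p = 3.4e-10). CTSA (LABE_00064529) lay at 581 to 1196 in segment 1 and at 1358.5 to 3883 in segment 4, and its median rose from 669 to 3163. The groups did not overlap, and the log2 fold change was 1.85 ± 0.22 (limma adjusted p = 4.3e-07), with the level 1.97 to 5.79 times higher within a fish. Ctsa (LABE_00077830) lay at 836 to 2475 (median 2011) in segment 1 and at 2878 to 11295 (median 6751) in segment 4, a log2 fold change of 1.77 ± 0.32 (limma adjusted p = 0.00015). LABE_00077830 was low in fish 5 in every segment (836, 907, 1240 and 2878 from segment 1 to segment 4), so that its segments 3 and 4 overlapped between fish, although within each fish segment 4 was 1.89 to 4.08 times segment 3.

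Of the 3 copies of cathepsin D, the aspartic protease, only Ctsd (LABE_00049767) was called between segments 4 and 1. It lay at 2407.5 to 3723 normalized counts in segment 1 (median 3054) and at 4471 to 8622 in segment 4 (median 8239), without overlap, and the log2 fold change was 1.28 ± 0.15 (n = 6, limma adjusted p = 4.2e-07). The second copy, ctsd (LABE_00056481), had its lowest levels in segment 3, at 1163 to 2114 (median 1500.5), below the median of 2535 in segment 1 (range 1754 to 3135) and that of 3158 in segment 4 (range 1619 to 3756). It was lower in segment 3 than in segment 1 in 6 of 6 fish (log2 fold change -0.71 ± 0.21, limma adjusted p = 0.021) and higher in segment 4 than in segment 3 in 5 of 6 fish (0.87 ± 0.21, limma adjusted p = 0.0048). Without fish 4, 5 or 6 the call between segments 3 and 1 was lost (limma adjusted p = 0.11, 0.076 and 0.055). The third copy, ctsd (LABE_00072769), showed the same order of medians, 853, 818, 556 and 1264 from segment 1 to segment 4, but its fish differed widely (405 to 1735 in segment 4) and no comparison was called. With fish as a block, segment 3 fell below segment 1 (log2 fold change -0.57, limma adjusted p = 0.027). In the same fit segment 4 was above segment 3 (0.88, limma adjusted p = 0.0013) and above segment 2 (0.49, limma adjusted p = 0.046).

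On the log2(value + 1) scale the largest difference among the members was that of a cathepsin B copy, although the ratio of means was higher for CTSZ (LABE_00053140), described with its few reads further on. Cathepsin B is a cysteine protease that also trims dipeptides from the end of proteins. CTSB (LABE_00042575) lay at 81.4 to 156 normalized counts in segment 1 (median 150), at 74.6 to 192 in segment 2, at 76.3 to 222 in segment 3 and at 22518 to 88297 in segment 4 (median 68802.5). All 6 hind-gut libraries were thus more than 100 times above the highest library of the other segments, the ratio of the means of segments 4 and 1 was 482 (209 to 884 within a fish), and the log2 fold change was 8.82 ± 0.30 (n = 6, limma adjusted p = 1.0e-15). Only 6 of the 19515 models had a larger fold change in this comparison. The value of fish 2 in segment 4, 22518, was below the 54611 to 88297 of the others. The other copy, CTSB (LABE_00000222), was well expressed in each segment, with medians of 9634, 9335, 8789 and 12855 from segment 1 to segment 4 (range 5905 to 11113 in segment 1 and 7653.5 to 17497 in segment 4). Its log2 fold change of 0.43 ± 0.19 in segment 4 against segment 1 was not called (limma adjusted p = 0.084), with 5 of 6 fish higher and fish 2 lower. It was called with fish as a block (limma adjusted p = 0.010, and 0.0076 and 0.0059 against segments 3 and 2), without fish 2 (log2 fold change 0.59, adjusted p = 0.022) and without the segment 4 library of fish 2 alone (0.56, adjusted p = 0.016). It was also called by DESeq2 (0.46, adjusted p = 0.044), after quantile normalization (0.60, limma adjusted p = 0.010) and without the libraries with raised oocyte marker sums (0.70, limma adjusted p = 0.035).

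CTSL (LABE_00049861), the only model named for cathepsin L by its symbol, varied widely between fish and was called in no comparison. Its medians were 3878, 3005, 2794 and 3561 from segment 1 to segment 4, while its libraries ranged from 2208 to 6225, 1556 to 7243, 1526.5 to 5431 and 2470.0 to 7148 in the same order, and its log2 fold change in segment 4 against segment 1 was -0.00 ± 0.33 (limma adjusted p = 0.999), with 3 fish higher and 3 lower. A different model, LABE_00033481, carries the product name Cathepsin L in place of a symbol and is therefore not a member. It lay at 529 to 1462.5 in segment 1, 888 to 2352 in segment 3 and 122180 to 495610 in segment 4, with medians of 914, 1682 and 348250, a log2 fold change of 8.39 ± 0.31 against segment 1 (limma adjusted p = 3.6e-15). In segment 4 this model alone held 0.699% to 2.61% of all normalized counts of a library, against 0.0024% to 0.0068% in segment 1. Of the other models named as cathepsins outside the 10 names, CTSF (LABE_00053902) was lower in segment 4 than in segment 1 in 6 of 6 fish (medians 883 and 1367, log2 fold change -0.60 ± 0.17, limma adjusted p = 0.0098). CTSV (LABE_00012443) was listed above 0 in 1 library (7.57) and ctse-b (LABE_00067956) never exceeded 11.1, so neither was tested.

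**Figure D2:**
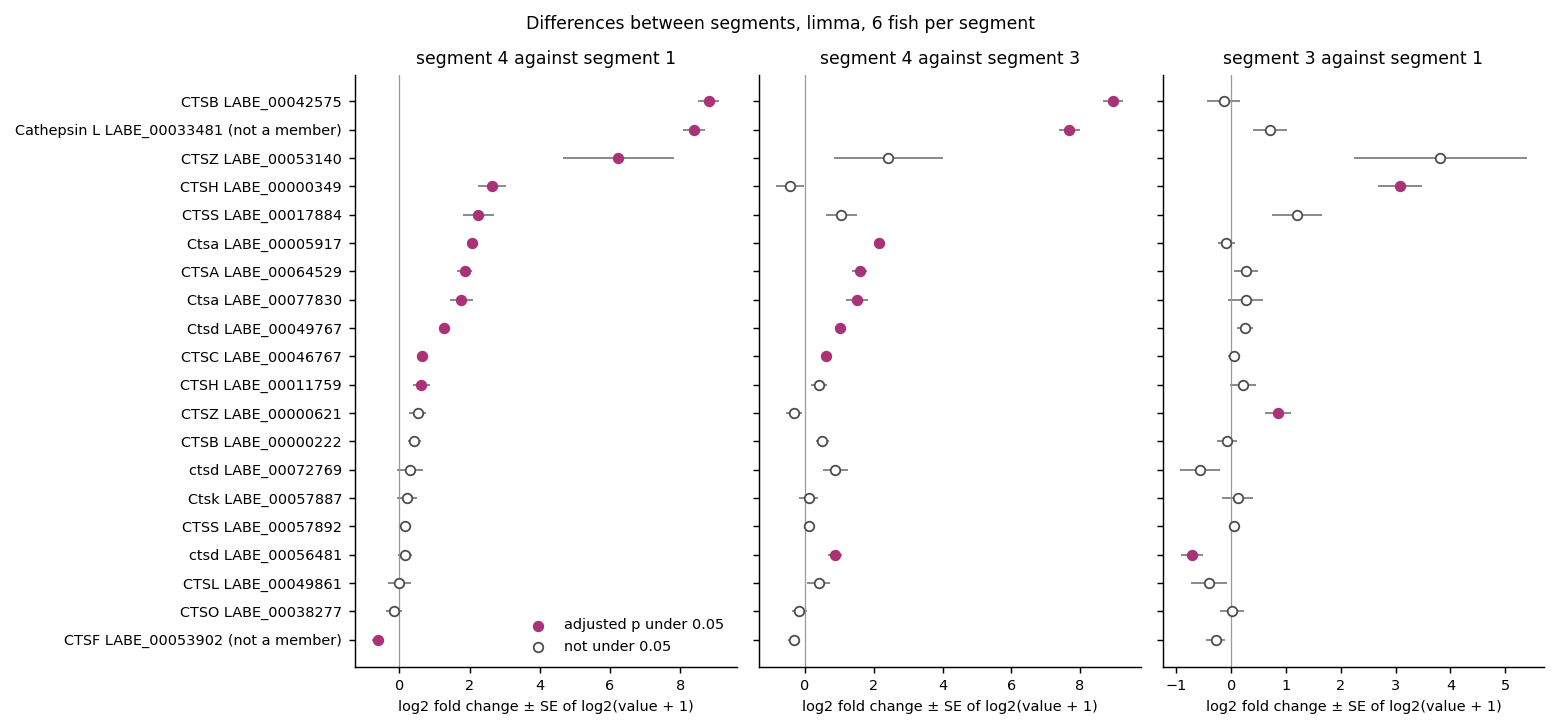
Log2 fold changes ± SE of the 18 members and of Cathepsin L and CTSF, which are not members, in 3 comparisons (limma, 6 fish per segment, filled points at an adjusted p under 0.05). CTSB LABE_00042575 (8.82) and Cathepsin L LABE_00033481 (8.39) stood far to the right in segment 4 against segment 1, whereas CTSH LABE_00000349 was called in segment 3 against segment 1 (3.08) and not in segment 4 against segment 3 (-0.44).

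Cathepsin H, an aminopeptidase of the lysosome, had copies with different courses. CTSH (LABE_00000349) rose early: it lay at 20.7 to 118 in segment 1 (median 50.9), 56.8 to 383 in segment 2 (median 136), 314 to 598 in segment 3 (median 385) and 163 to 481 in segment 4 (median 373). Segments 3 and 4 overlapped each other, and neither overlapped segment 1. The log2 fold change against segment 1 was 3.08 ± 0.40 in segment 3 (limma adjusted p = 9.4e-06) and 2.63 ± 0.40 in segment 4 (limma adjusted p = 1.7e-05), while segments 4 and 3 differed by -0.44 ± 0.40 (adjusted p = 0.58). Segment 2 stood between, 1.59 ± 0.40 above segment 1 (adjusted p = 0.070) and segment 3 a further 1.48 ± 0.40 above segment 2 (adjusted p = 0.054), both in 6 of 6 fish. The second of these was called with fish as a block (limma adjusted p = 0.041), and the first without fish 2, where it was the only cathepsin called between segments 2 and 1. The other copy, CTSH (LABE_00011759), lay at 4319 to 8651 in segment 1 (median 7910) and at 6586 to 14780 in segment 4 (median 11227). Its groups overlapped because fish 4 and 5 were low in every segment, but segment 4 was above segment 1 in 6 of 6 fish, by 1.24 to 1.72 times. The log2 fold change of 0.62 ± 0.24 was at the threshold (limma adjusted p = 0.047) and lost its call in 10 of 19 alternatives, including without each fish in turn (0.055 to 0.10), whereas with fish as a block the adjusted p was 5.8e-06, and 0.0014 and 0.000105 against segments 3 and 2.

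CTSC (LABE_00046767), the dipeptidyl peptidase that activates serine proteases of granules in mammalian immune cells, rose by a small amount. Its level was 5853 to 7706 in segment 1 (median 6688), 5747 to 7119 in segment 2, 6229 to 8161 in segment 3 and 7530 to 12824 in segment 4 (median 11137.5). Segment 4 was higher than segments 1 and 3 in 5 of 6 fish and higher than segment 2 in 6 of 6, and the log2 fold change was 0.66 ± 0.11 against segment 1 (limma adjusted p = 7.2e-05), 0.61 ± 0.11 against segment 3 (0.00041) and 0.72 ± 0.11 against segment 2 (3.5e-05). In the exception, fish 2, segments 1 and 4 had nearly the same level (7612 and 7530).

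Cathepsin S, which in mammals cuts the invariant chain in antigen-presenting cells, was represented by a copy that rose and a copy that was not called. CTSS (LABE_00017884) lay at 209 to 320 in segment 1 (median 263), 233 to 431 in segment 2 (median 388), 465 to 1273 in segment 3 (median 541) and 456 to 5802 in segment 4 (median 848). Segment 4 did not overlap segments 1 or 2, and the log2 fold change was 2.25 ± 0.45 against segment 1 (limma adjusted p = 0.00043) and 1.78 ± 0.45 against segment 2 (0.0058), but 1.05 ± 0.45 against segment 3 (adjusted p = 0.16, with 3 fish higher and 3 lower). CTSS (LABE_00057892), in contrast, stayed between 6460 and 9916 in all 24 libraries, with medians of 7551, 8006.5, 8045 and 8959 from segment 1 to segment 4, and its log2 fold change in segment 4 against segment 1 was 0.17 ± 0.10 (adjusted p = 0.23).

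The copies of cathepsin Z, a carboxypeptidase also called cathepsin X, had different courses too. CTSZ (LABE_00053140) was read almost only in the posterior gut, and there in a few fish: in segment 4 fish 1 to 6 had 1255.5, 244, 167, 2.73, 2135 and 0 normalized counts, in segment 3 they had 4.77, 431, 14.3, 0, 4.68 and 78.9, in segment 2 fish 6 had 33.7 and fish 2 had 1.03, and in segment 1 a single read was found (fish 1). Fish 4 had next to none in any segment, and fish 6 had it in segments 2 and 3 but not in segment 4. The log2 fold change in segment 4 was 6.24 ± 1.58 against segment 1 (limma adjusted p = 0.0037) and 5.41 ± 1.58 against segment 2 (0.016). The model reached 10 in no segment 1 library, so it passed the filter through the segments where it was high. In segment 2 it reached 10 in fish 6 alone. The tests against segments 1 and 2 are thus not independent of the filter. As the log scale depends on the pseudocount here (3.95 with 10 added), the reads themselves are given: 5233 in segment 4 and 1 in segment 1, a ratio per size factor of 3708 with an exact 95% interval of 665 to 146493 that covers counting error only. Without fish 1, 3 or 5 the call against segment 2 was lost (adjusted p = 0.10, 0.083 and 0.11). CTSZ (LABE_00000621) had its highest levels in segment 3, at 155 to 287 (median 230), above the median of 129 in segment 1 (range 49.4 to 182) and that of 166 in segment 4 (range 128 to 229). Its level in segment 3 exceeded that in segment 1 in 6 of 6 fish (log2 fold change 0.85 ± 0.24, limma adjusted p = 0.018), a call that was lost without fish 3 (0.095) and without the libraries with raised oocyte marker sums described next (0.11). Segment 4 was above segment 1 by 0.52 ± 0.24 (adjusted p = 0.10), again in 6 of 6 fish, and was called with fish as a block (limma adjusted p = 0.018).

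CTSZ (LABE_00053140) and CTSS (LABE_00017884) were high in the same libraries as genes of the egg. Over the 24 libraries, the named models whose log2(value + 1) was most like that of CTSZ (LABE_00053140) were ZFP36L2 (Pearson r = 0.98), SLC3A2 (0.98), birc5.1-a (0.98), and the egg coat proteins ZP3 and ZP2 (both 0.98), given as a description of libraries that share their fish. A list of oocyte markers (ZP1 to ZP4, ZAR1, FIGLA, BMP15, GDF9, NOBOX, LHX8, DAZL and DDX4) was drawn up after this was seen. It matched 26 models, of which 17 were tested and 16 were called higher in segment 4 than in segment 1 (17.1% of all models). As the list followed from the same libraries, this count adds no independent evidence. Some of its models also passed the filter only through later segments. For example, zar1 (LABE_00000962) never exceeded 6.55 in segment 1 and reached 6080 in segment 4. Their summed normalized count was 136 to 241 in segment 1, 154 to 1515 in segment 2, 235 to 11589 in segment 3 and 325 to 96779 in segment 4. In segment 4, fish 1 to 6 had sums of 55170, 7126, 4950, 349, 96779 and 325, and the raised libraries outside segment 4 were those of fish 2, 3 and 6 in segment 3 (11589, 774 and 2738) and of fish 6 in segment 2 (1515). In segment 1, NOBOX, GDF9, BMP15 and dazl were at 0 in all 6 libraries. In the 16 libraries left when those above 3 times the highest segment 1 sum were taken out (6, 5, 3 and 2 from segment 1 to segment 4), CTSZ (LABE_00053140) was between 0 and 4.77 and too low to test. In the same libraries CTSS (LABE_00017884) was 456 and 515 in segment 4 and 465 to 541 in segment 3, still above segment 1 (log2 fold change 0.89, limma adjusted p = 0.0049) and no longer called against segment 2 (0.46, adjusted p = 0.18). What part oocyte RNA has in the remaining libraries was not tested.

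**Figure D3:**
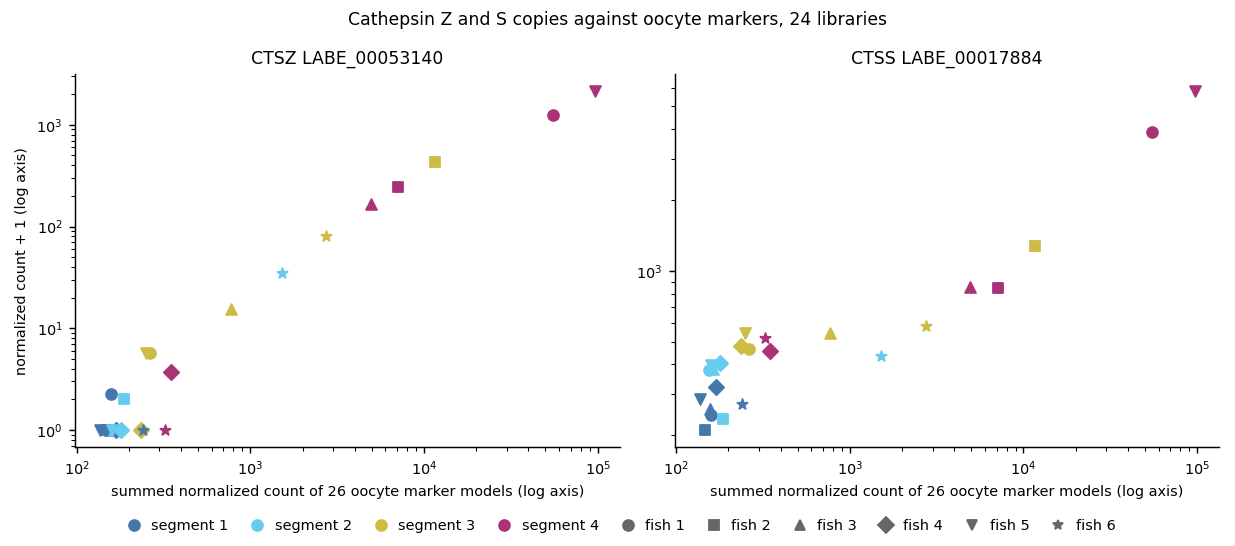
Normalized count + 1 of CTSZ LABE_00053140 and CTSS LABE_00017884 against the summed normalized count of 26 oocyte marker models in 24 libraries (both axes log, colour for segment and symbol for fish). The segment 4 libraries of fish 5 and fish 1 had the highest marker sums (96779 and 55170) and the highest counts of both cathepsins. The segment 4 libraries of fish 4 and 6 lay with the low libraries for CTSZ (2.73 and 0). For CTSS (456 and 515) they lay above all libraries of segments 1 and 2.

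Ctsk and CTSO were expressed in all segments and were called in none of the 6 comparisons. Ctsk (LABE_00057887), known from bone-resorbing osteoclasts and fibroblasts of mammals, had medians of 5311, 5073, 5495 and 5347 from segment 1 to segment 4, with 2931.6 to 6990 in segment 1 and 4394 to 8076 in segment 4 (log2 fold change 0.22 ± 0.28, limma adjusted p = 0.60). With fish as a block it was higher in segment 4 than in segment 2 (0.35, adjusted p = 0.037), in 5 of 6 fish. CTSO (LABE_00038277) had medians of 275, 257, 302 and 264 and a log2 fold change of -0.16 ± 0.22 between segments 4 and 1 (adjusted p = 0.65).

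Copies of 1 name were compared directly. For each pair of copies the log2 ratio of the 2 levels was set against itself in segments 4 and 1, in 11 pairs including Cathepsin L with CTSL, by a two-sided exact permutation test over 6 against 6 libraries and by one that keeps the fish as pairs. The smallest p these tests allow before adjustment is 0.0022 and 0.031. The tests were chosen after the fold changes above were seen. For pairs whose copies differed there they add no independent evidence. The ratio of CTSB LABE_00000222 to LABE_00042575 fell by 8.39 on the log2 scale (from 6.10 ± 0.26 to -2.29 ± 0.54, SD), in 6 of 6 fish (exact adjusted p = 0.0060, paired 0.043). The same values of p were found for the CTSS copies (2.08, from -4.84 ± 0.23 to -2.76 ± 1.66), for Ctsd LABE_00049767 over ctsd LABE_00056481 (1.12) and for Cathepsin L over CTSL (8.39), each higher in 6 of 6 fish. CTSH LABE_00000349 gained on CTSH LABE_00011759 by 2.01 in 6 of 6 fish (exact adjusted p = 0.0095, paired 0.043). The CTSZ pair changed by -5.72 in 5 of 6 fish, with a wide spread in segment 4 (0.99 ± 4.83, exact adjusted p = 0.052, paired 0.076). For 3 further pairs only the test within fish passed (exact paired adjusted p = 0.043 for each): Ctsd LABE_00049767 over ctsd LABE_00072769 was higher by 0.97 in 6 of 6 fish (unpaired 0.092), Ctsa LABE_00005917 over Ctsa LABE_00077830 was higher by 0.30 in 6 of 6 (unpaired 0.55), and ctsd LABE_00056481 over ctsd LABE_00072769 fell by 0.16 in 6 of 6 (unpaired 0.78). The other pairs of cathepsin A copies changed by 0.21 and 0.09, each in 5 of 6 fish (exact adjusted p = 0.44 and 0.87, paired 0.17 and 0.53).

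Segment and fish took very different shares of the variation of the members. Of the variance of log2(value + 1) over the 24 libraries, segments accounted for 98.3% in CTSB (LABE_00042575), 93.0% in Ctsa (LABE_00005917), 81.9% in CTSA (LABE_00064529) and in Ctsd (LABE_00049767), and 3.49% in CTSO. The median over the members was 47.0%, beside 22.4% over all models tested. In 7 of the 18 members the share between fish was larger than that between segments, which held for 57.9% of all models. These shares are not corrected for the number of groups, so 6 fish take more than 4 segments even without an effect of either. Differences between fish took 79.3% in Ctsk, 68.8% in CTSH (LABE_00011759), 64.8% in ctsd (LABE_00072769) and 61.5% in CTSO. The mean of Ctsk over the 4 segments ranged from 3064 in fish 4 to 7161 in fish 6, and that of ctsd (LABE_00072769) from 405 in fish 3 to 1201 in fish 5. The order of the fish was not shared: fish 4 was lowest for Ctsk, CTSH (LABE_00011759) and CTSO and among the highest for ctsd (LABE_00072769), with 1073.

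**Figure D4:**
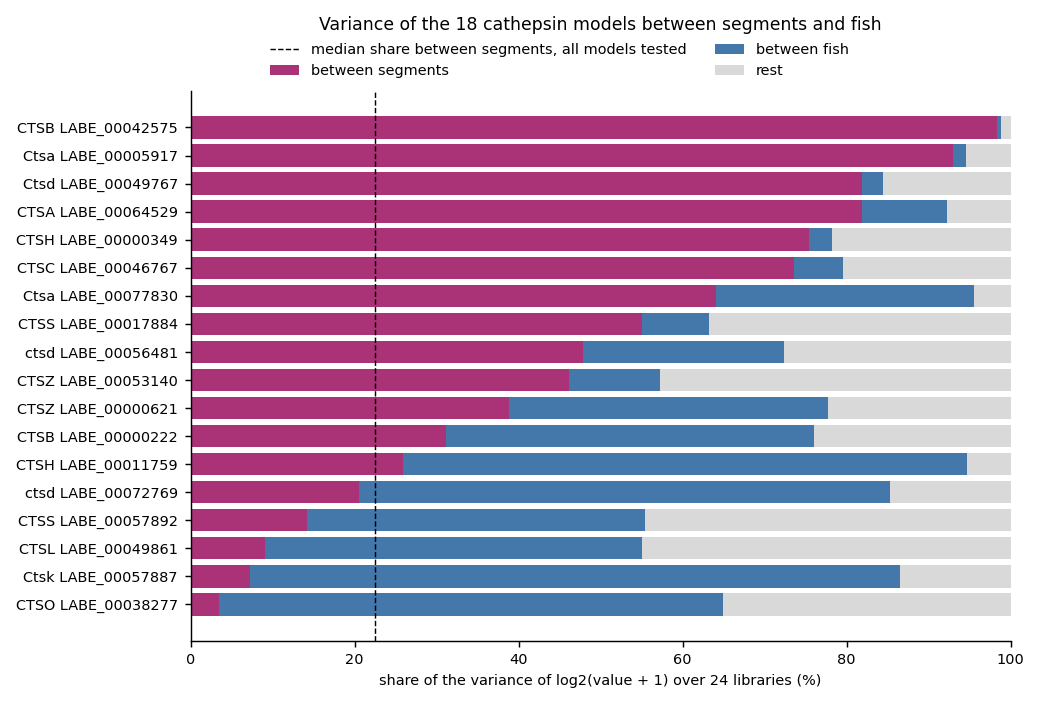
Share of the variance of log2(value + 1) over 24 libraries that lay between segments, between fish and in neither, for the 18 cathepsin models, with the median share between segments of all 19515 models tested as a dashed line (22.4%). The bars run from CTSB LABE_00042575 (98.3% between segments) to CTSO LABE_00038277 (3.49%), and Ctsk LABE_00057887 had the largest share between fish (79.3%).

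Summed over the 18 members, the normalized count was 43379 to 60109 in segment 1 (median 52202), 43577 to 60796 in segment 2, 43369 to 60849 in segment 3 and 82284 to 197221 in segment 4 (median 160387), where the lowest value was that of fish 2. This was 0.213% to 0.277% of all normalized counts of a library in segment 1 and 0.471% to 1.06% in segment 4. The ratio of the means of segments 4 and 1 was 2.93, and 1.70 without CTSB (LABE_00042575), which made up 27.4% to 48.8% of the members' counts in segment 4 and 0.157% to 0.397% elsewhere. With Cathepsin L (LABE_00033481) added, the sum in segment 4 was 204464 to 666714.

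Among the models most like CTSB (LABE_00042575) over the 24 libraries were MRC1 (LABE_00048734), a mannose receptor (Pearson r = 1.00), CUBN, the uptake receptor cubilin (0.99), Lrp2, the uptake receptor megalin (0.99), and Cathepsin L (0.99). Their median normalized counts in segments 1 and 4 were 83.1 and 67029 for MRC1, 21.8 and 25085 for CUBN, and 57.0 and 41932.5 for Lrp2. CTSH (LABE_00000349) was most like Mag (0.97), PIGR, the receptor that carries antibodies across epithelia (0.95), WBSCR17 (0.95), ADORA2B (0.95) and TMC6 (0.95). The median count of PIGR, for example, was 37.5, 138, 257 and 191 from segment 1 to segment 4, an order of segments that CTSH (LABE_00000349) shared. These correlations describe libraries that come in sets of 4 from a fish, and no test was made of them.

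Proteins that work with cathepsins differed too, and they are given from lists by function with the numbers called in segment 4 against segment 1 (17.1% of all models higher, 14.8% lower). Of the partners of cathepsins A and D (PSAP, GLB1 and NEU1), 5 of 7 models were higher and 1 was lower. PSAP (LABE_00061503), the precursor of the saposins, rose by 1.33 ± 0.14 on the log2 scale (median 41560 to 108205, limma adjusted p = 1.2e-07), GLB1 (LABE_00061948) by 2.33 ± 0.31 and NEU1 (LABE_00066599) by 1.75 ± 0.19, while PSAP (LABE_00048554) was lower (-0.48 ± 0.10). Of other lysosomal proteases, 6 of 9 models were higher and 1 was lower (GGH LABE_00038459, -0.999 ± 0.167). They included the carboxypeptidases CPVL (3.28 ± 0.19, median 2522 to 24121), SCPEP1 (0.86 ± 0.12) and PRCP (1.41 ± 0.13) and the dipeptidyl peptidase DPP7 (1.18 ± 0.16). For mannose 6-phosphate tagging and sorting, 10 of 29 models were higher and 0 lower, with a median log2 fold change of 0.24, so that most of the sorting machinery was not called. Those called with the highest mean counts were Vps35, a retromer subunit (0.28 ± 0.08), AP1B1, a clathrin adaptor subunit (0.74 ± 0.12), IGF2R (LABE_00022530), a receptor for the tag (1.03 ± 0.22), and SCARB2 (LABE_00008808), a lysosomal membrane protein (0.73 ± 0.19). Other copies of SCARB2 were not called: LABE_00036232 (-0.60 ± 0.24, limma adjusted p = 0.059) and LABE_00050119 (0.19 ± 0.21, 0.54).

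Among transcription factors of lysosomal genes, Tfeb (LABE_00017178) rose from 386 to 576 normalized counts in segment 1 (median 451) to 3268 to 10946 in segment 4 (median 8848), a log2 fold change of 4.05 ± 0.21 (limma adjusted p = 1.4e-12). TFEC rose by 0.50 ± 0.16, and Mitf and Zkscan3 were not called (-0.32 ± 0.36 and -0.30 ± 0.27). In class II antigen processing 5 of 9 models were higher and 0 lower. They were Cd74 and CD74, the invariant chain that cathepsin S cuts (LABE_00038649, 0.37 ± 0.10, and LABE_00050764, 0.39 ± 0.10), the thiol reductase IFI30 (LABE_00037054, 1.59 ± 0.11, and LABE_00004968, 4.95 ± 1.52) and the class II transactivator Ciita (0.63 ± 0.10). The H2-Aa and H2-Ab1 models, which name class II chains themselves, were not called (limma adjusted p = 0.51 to 0.97). Of 2 class II beta chain models found by product name, 0 were called against segment 1. Against segments 3 and 2, 1 of these 2 was called higher (5.21% and 9.72% of all models). IFI30 (LABE_00004968) lay between 0 and 5.80 in segment 1, and in segment 4 fish 1 to 6 had 1425, 179, 146, 0.911, 2392 and 1.75, so that it was high in the same 4 fish as the oocyte markers and CTSZ (LABE_00053140). As IFI30 (LABE_00004968) reached 10 in no segment 1 library, it passed the filter through the later segments. Its place among the 5 models called is thus not independent of the filter. Of 4 tested models of the inhibitor list, 0 were higher and 2 were lower, both of them SERPINB1, which in mammals inhibits serine proteases of neutrophils (LABE_00038777, -1.32 ± 0.10, median 11149 to 4307, and LABE_00004705, -2.02 ± 0.26). Of the 4 models with the product name cystatin, the class of direct inhibitors of cysteine cathepsins, 0 were called by limma against segment 1, with 0 at an unadjusted p under 0.05 and 0 called by edgeR or DESeq2. As limma called 31.9% of all models there, 0 of 4 does not set these models apart. A cystatin named by symbol in the inhibitor list, CST7 (LABE_00006231), was not called by limma either (0.45 ± 0.29, adjusted p = 0.26). Cystatin-B (LABE_00003351) had medians of 2552 in segment 1 and 3219 in segment 4 (0.26 ± 0.14, limma adjusted p = 0.15). It was called higher in segment 4 against segment 3 (0.47 ± 0.14, limma adjusted p = 0.023) and against segment 2 (0.42 ± 0.14, limma adjusted p = 0.028).

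**Figure D5:**
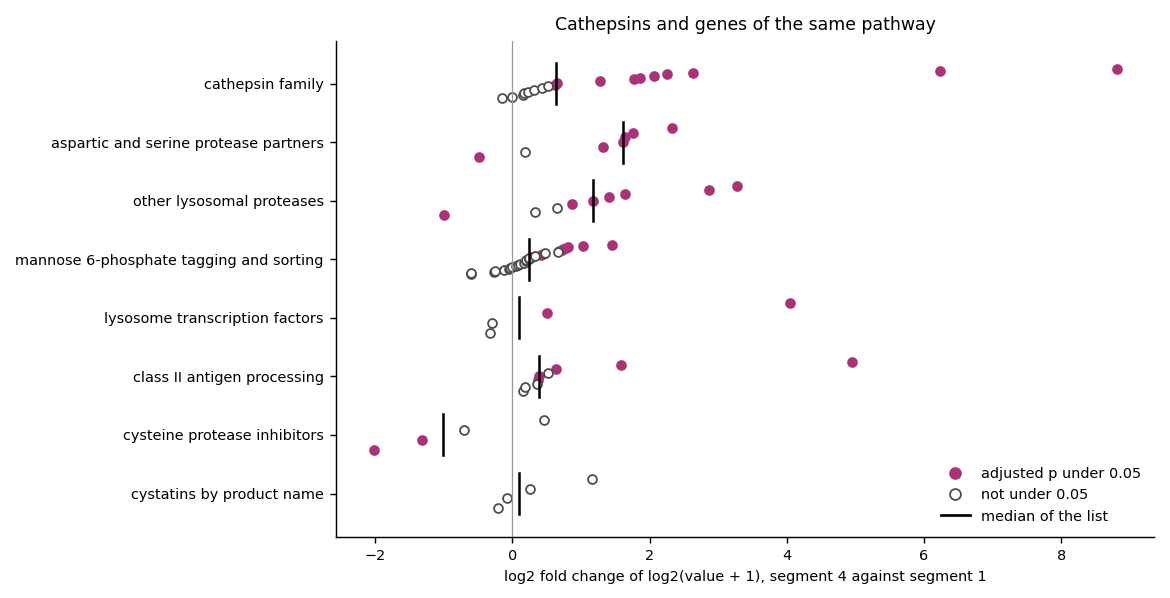
Log2 fold changes in segment 4 against segment 1 of the tested models of the cathepsin family and of 7 lists of related genes (filled points at a limma adjusted p under 0.05, bars at the list medians). The points of lysosomal proteases and of the partners PSAP, GLB1 and NEU1 lie mostly to the right of 0. Both called inhibitors (SERPINB1, in mammals an inhibitor of serine proteases, -1.32 and -2.02) lie to the left.

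Markers of cell types also differed between the segments, beside all of these differences. In segment 4 against segment 1, 17.1% of all models were called higher and 14.8% lower. Enterocyte markers were called higher for 1 and lower for 9 of 14 models in segment 4 against segment 1, and their summed count was 283172 to 361214 in segment 1 and 148191 to 215579 in segment 4. Macrophage markers were called higher for 5 and lower for 2 of 19 models, with sums of 28345.5 to 34356 and 52695 to 114382. Most of that rise was MRC1 (LABE_00048734): without it, 4 of 18 models were higher and 2 lower, with sums of 28304 to 34243 in segment 1 and 31670 to 46652 in segment 4. These 4 and 2 models are near the shares over all models. Markers of granulocytes and osteoclasts were higher for 3 and lower for 0 of 8 models, with sums of 14534 to 81844 and 73787 to 149603. Most of that sum was EPX (LABE_00008768), with medians of 37972.5 in segment 1 and 96863.5 in segment 4. In segment 3 the sum of fish 2 was 225920, above every segment 4 library. Against segment 3, 0 of the 8 models were called in segment 4. As limma called 11.0% of all models there, 0 of 8 does not set these markers apart. Of the markers of T and NK cells and of smooth muscle 1 of 12 and 1 of 15 models were higher and 0 lower, below the shares over all models. Between segments 4 and 1 limma called 0 of 6 models of the acinar pancreas and 0 of 5 of blood, with 0 at an unadjusted p under 0.05 and 0 called by edgeR or DESeq2 in both lists. The pancreas sums ran from 488 to 79664 in segment 4, so 0 calls say little there. For blood, 0 of 5 does not set the markers apart either, as limma called 31.9% of all models between segments 4 and 1. Against segment 2, 2 of the 5 blood models were higher in segment 4 (9.72% of all models). They were hba (1.20 ± 0.43, limma adjusted p = 0.047) and hba1 (1.28 ± 0.44, 0.042). The part of these cell types in the cathepsin results was not tested.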

How the data were processed

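RNA of 4 intestinal segments from 6 ballan wrasse was sequenced in 24 libraries (TruSeq RNA v2). Per the labels and the methods, the authors trimmed reads with cutadapt and Sickle, checked them with FastQC 0.9.2, aligned them with TopHat (Tophat2 in the methods), assigned them to gene models with featureCounts (Subread) and normalized the counts with DESeq2. The strand setting and the treatment of reads with several matches were not found in those sources. The deposited values are normalized counts, a signal equal to reads divided by a size factor and kept to 5 significant digits. Whole reads were recovered from them: per library, 94.5% to 99.3% of values were whole to within 0.05, and intervals cover counting error only.

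Values were tested with limma 3.58.1 in R 4.3.3 on log2(value + 1), two-sided, with a trend and 4 segments as groups, after keeping models that reached 10 in 6 or more of the libraries, with Benjamini-Hochberg adjustment. One line without a gene model was left out, and 4221 models have no known name. Fish numbers come from the labels, and the 4 segments of a number are taken as 1 animal. Deviations from the segment means correlated at 0.43 between segments of the same fish (0.40 to 0.48 per fish, lowest pair 0.16) and at -0.09 between different fish and segments, so a fit with fish as a block was made too. p-values of the fit without it treat the libraries as independent.

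The members and the lists were chosen with earlier results of these data known. All members are described by segment, for each other list up to 4 called models with the highest mean were named (both IFI30 models beside these), and the 5 most correlated models were named for the 3 members with the largest fold changes, except 1 that is not reported here. The symbol SI was dropped from the enterocyte list since its letters match unrelated models. Copies of 1 name were compared by exact permutation tests, unpaired and paired by fish (SciPy 1.17.1), chosen after seeing the data. Alternatives were pseudocounts of 0.5 and 10, no filter or a minimum of 100, TMM and quantile scaling, edgeR 4.0.16 and DESeq2 1.42.0 on recovered reads, the block, and each fish left out. The fits were tested on simulated data. Gene models were not matched to a reference sequence, so none is shown.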

Additional observations from a re-analysis of the deposited data

Results flagged for a closer look

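In 7 of the 72 groups of 6 libraries (18 members by 4 segments) 1 library lay far from the others by Dixon's criterion, which chance alone meets in about 1 of 20 groups, and 5 of the 7 were libraries of fish 2. In segment 4, fish 2 was the lowest for Ctsa (LABE_00005917) at 5681.4 normalized counts against 11919 to 14577, for CTSB (LABE_00042575) at 22518 against 54611 to 88297, and for Ctsd (LABE_00049767) at 4470.9 against 7077.5 to 8622. CTSS (LABE_00017884) of fish 2 was lowest in segment 2, at 233.45 against 377.82 to 430.71, and highest in segment 3, at 1272.8 against 465.28 to 578.93. That segment 3 library also had the highest oocyte marker sum of its segment (11589). CTSZ (LABE_00053140) was highest in segment 2 in fish 6, at 33.747 against 0 to 1.033, where the oocyte marker sum was 1515. In segment 1 it was above 0 in fish 1 alone, at 1.2338, which is 1 read.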

How the results depend on the processing

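Of 28 pairs of a member and a comparison that were called, 23 were called under every alternative run (19 for each, 16 for CTSZ LABE_00053140, which was too low to test in the others), and no alternative turned a direction of these. The others lost their call under some settings: CTSH (LABE_00011759) in segment 4 against segment 1 under 10 (adjusted p up to 0.19), ctsd (LABE_00056481) in segment 3 against segment 1 under 3 (up to 0.11), CTSZ (LABE_00053140) in segment 4 against segment 2 under 3 (up to 0.11), CTSZ (LABE_00000621) in segment 3 against segment 1 under 2 (up to 0.11) and CTSS (LABE_00017884) in segment 4 against segment 2 under 1 (0.18). The causes were not tested.

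With the replicate block by fish, 12, 10, 12, 4, 1 and 0 members were called in segment 4 against 1, 4 against 3, 4 against 2, 3 against 1, 3 against 2 and 2 against 1 (of all models 41.8%, 18.3%, 30.2%, 23.2%, 5.45% and 1.92%), and 14 among the 4 segments (39.9%). Apart from the blocked values given in the report, the block changed no call of a member. With the block and without fish 2, chosen after seeing the data, these counts were 16, 11, 13, 5, 2 and 1 (of all models 42.3%, 23.5%, 32.8%, 24.2%, 7.04% and 3.72%). The 16 include models described above as not called between segments 4 and 1, and which ones is not given here. In the same order DESeq2 called 11, 10, 9, 5, 1 and 1 (33.9%, 13.9%, 23.6%, 16.3%, 3.48% and 1.45%), and edgeR called 10, 8, 9, 4, 0 and 0 (31.9%, 11.8%, 21.4%, 13.8%, 1.61% and 0.815%). In segment 3 against segment 2, 1 member, CTSH (LABE_00000349), was called with a pseudocount of 10 (2.22% of all models), with a minimum of 100 (3.62%) and without the 3 libraries with the highest oocyte marker sums (2.82%).

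Leaving out 1 fish at a time gave 9 to 10 members called in segment 4 against 1 (25.3% to 33.0% of all models), 7 to 8 against 3 (7.88% to 15.3%) and 7 to 10 against 2 (15.0% to 23.7%), 2 to 3 in segment 3 against 1 (8.69% to 16.0%), 0 to 1 in segment 3 against 2 (1 without fish 4, 0.364% to 3.14%), 0 to 1 in segment 2 against 1 (1 without fish 2, 0.213% to 1.49%) and 8 to 11 among the 4 segments (21.1% to 31.2%). The ratio of the summed members between segments 4 and 1 was 2.79 to 3.30 without 1 fish and 1.70 without CTSB (LABE_00042575). Leaving out libraries of fish 2 or with raised oocyte marker sums was chosen after seeing the data. Depth limits CTSZ (LABE_00053140), with 1 read in segment 1 and 39 in segment 2.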
